A study of Mus musculus with 4 samples.

Results

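Pericytes, the mural cells of brain capillaries, were taken as every cell that the authors' deposited cell tables label PC in frontal cortex and midbrain, 726 of 21644 cells. They were described beside the smooth muscle cells (SMC, 987 cells) and endothelial cells (EC, 5753 cells) of the same libraries, and then by region and genotype. The tissue came from Hua-Syn(A53T) transgenic mice, which carry a human allele linked to familial Parkinson disease, and from wildtype littermates on C57BL/6, all aged 6 to 9 months. Each combination of region and genotype was 1 library of single cells (10x Chromium 3′ v3) from a dissociation aimed at adult glia and vessels: 191 pericytes in wildtype and 137 in transgenic frontal cortex, 259 in wildtype and 139 in transgenic midbrain. The design names 3 mice per group and the labels say that both regions came from the same mice, but the labels number the mouse 3 in the frontal cortex samples and 0 in the midbrain samples. Cells are not assigned to mice in the deposited tables, so the mice behind a library cannot be told apart. The promoter that drives the transgene is not given in the sources used here.

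Pericytes lie within the capillary basement membrane, where they are reached by platelet-derived growth factor from the endothelium and hold the receptor for it, Pdgfrb. In brain they keep the endothelial barrier tight, set capillary tone and lay down part of the vessel's matrix. Their resting potential is governed by an ATP-sensitive potassium channel built from the pore subunit Kcnj8 and the sulphonylurea receptor Abcc9, so that falling energy or adenosine hyperpolarises them. Smooth muscle cells of arterioles share their lineage but carry the full contractile apparatus.

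The unit throughout is CPM, the UMI counts of a gene summed over the cells of 1 type in 1 library, divided by that type's total and scaled as counts per 1000000. Where 4 values stand in a row, their order is wildtype frontal cortex, transgenic frontal cortex, wildtype midbrain and transgenic midbrain. Pericyte totals were 1025949, 659511, 1218857 and 786939 UMIs, with medians of 5218, 4849, 4603 and 5482 UMIs and 2414, 2286, 2236 and 2440 genes per cell. The median mitochondrial share was 3.58%, 4.40%, 3.71% and 3.64%. With 1 library per group no test was possible and no p-value is given. Ratios are on the log2 scale, on which 1 means 2 times, and the ranges in square brackets after them are exact 95% intervals. They cover counting error alone, not the spread between mice. Where a sum held 0 UMIs, 3 UMIs took its place and the ratio is a bound. Libraries shared 3 to 15 cell barcodes in pairs and 0 pericyte barcodes. No source used here states that doublets were removed, and none were called. Markers of other cells were present in the pericyte sums at unequal levels: the 10 microglial markers summed to 1643, 469, 355 and 213 CPM, the 16 endothelial markers to 1882, 1155, 1056 and 1163, and 11 astrocyte markers to 370.4, 1155, 806 and 436. The 5 erythroid markers summed to 21.4, 462, 62.4 and 332 and were thus higher in both transgenic libraries. The genotype and region results were therefore also computed without the pericytes that held 10 or more UMIs of the microglial, endothelial and astrocyte lists. This selection, called the restricted set, was chosen after the data were seen and kept 122, 70, 198 and 103 cells. Its median UMIs per cell were 4633.5, 3692, 4220.5 and 4987, against 5218, 4849, 4603 and 5482 in all pericytes. The selection thus also lowered depth, most in transgenic frontal cortex.

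The label PC held against its markers. All 16 pericyte markers listed for the check were highest in PC among the cell types of both frontal cortex libraries, and 15 of 16 in both midbrain libraries, where Cspg4 (the proteoglycan NG2) was second to the cells labelled imNeur. After thinning each cell to 2000 UMIs the median pericyte held 13, 13, 13 and 12 of the 16 markers and the least marked one 6, and 100% held at least 4. In the same thinned cells 38.0% to 55.6% of SMC, 1.11% to 2.51% of EC and at most 0.195% of microglia held 4 or more. Kcnj8 was detected in 84.7%, 82.8%, 86.0% and 78.7% of thinned pericytes (96.9%, 90.5%, 96.5% and 92.1% before thinning) and in 0.216% to 0.450% of thinned microglia, which should lack it. Median UMIs before thinning were 4603 to 5482 in pericytes and 6749 to 8318 in microglia. Pericytes formed 1 deposited cluster in each region, and no cell of another label was in it. The authors' clusters and types rest on these same genes, so differences between types are given as descriptions.

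The 4 marker genes described first had similar levels in all 4 libraries. Kcnj8 (chr6:142564837-142571614) stood at 1441, 1286, 1518 and 1338 CPM in pericytes, against 16.0, 6.69, 35.3 and 20.6 in SMC and at most 5.90 in EC. Its partner Abcc9 (chr6:142587862-142702315), the next gene along chromosome 6, stood at 1346, 1463, 1269 and 1371, against 21.7, 13.4, 30.5 and 12.2 in SMC. Pericytes thus exceeded SMC in every library, by log2 ratios of 5.43 to 7.59 and 5.38 to 6.82. Vtn (chr11:78499091-78502324), the secreted adhesion protein vitronectin, was at 13364, 13989, 13934 and 12969, and SMC held 634, 398, 869 and 551. Atp13a5 (chr16:29231851-29378732), a P5-type transport ATPase, stood at 1818, 1991, 1958 and 1876, against 47.3, 47.8, 73.0 and 61.3 in SMC and 7.01, 7.33, 10.2 and 5.38 in EC. Pdgfrb was 2084, 2306, 2062 and 2220.0 in pericytes and 361, 317, 343 and 370.3 in SMC, a log2 ratio of 2.53 to 2.86. Rgs5, a regulator of G-protein signalling that both mural types share, differed least among these genes, with 9247, 9548, 8766 and 10418 against 2706, 2621, 2402 and 3209 (log2 ratio 1.70 to 1.87). In the other direction Acta2, smooth muscle actin, was 31.2, 42.5, 74.7 and 68.6 in pericytes against 15454, 16831, 13783 and 13579 in SMC, and the endothelial claudin Cldn5 was 248, 100.1, 126 and 82.6 against 7391, 6019, 6744 and 5382 in EC.

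**Figure D1:**
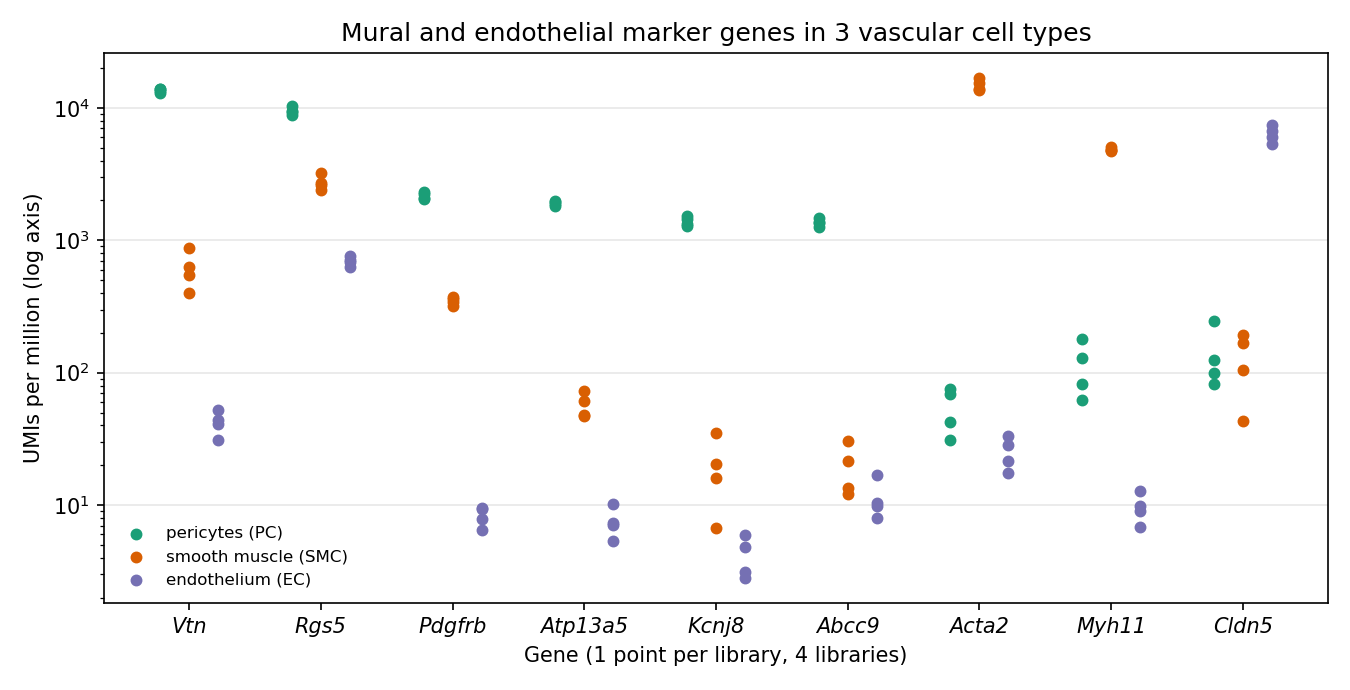
CPM (log axis) of 9 marker genes in pericytes, smooth muscle cells and endothelial cells, with 1 point per library and 4 libraries per type. The pericyte points of Kcnj8, Abcc9, Vtn and Atp13a5 lie close together and far above those of both other types. Among the pericyte markers shown, Rgs5 is the one on which pericytes and smooth muscle lie closest. Acta2 and Myh11 lie lowest relative to smooth muscle.

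Pericytes made up 3.06% (2.65 to 3.52) of cells in wildtype and 3.63% (3.06 to 4.28) in transgenic frontal cortex. In midbrain the shares were 3.39% (3.00 to 3.82) and 3.48% (2.93 to 4.10). When only cells with 500 genes or more and a mitochondrial share below 10% were kept, they were 3.22% of 5873 cells and 4.17% of 3141 in frontal cortex and 3.84% of 6696 and 4.02% of 3387 in midbrain. The difference between libraries was not tested. Relative to the other vascular cells the libraries differed more, with 8.53, 15.9, 13.9 and 17.6 pericytes per 100 EC. Of pericytes and SMC together, pericytes were 39.1% (34.7 to 43.5), 59.8% (53.2 to 66.2), 38.8% (35.1 to 42.6) and 42.4% (37.0 to 47.9), which sets the transgenic frontal cortex library, with 92 SMC, apart from the other 3. Shares of dissociated cells depend on how each cell type survives dissociation, and this was not tested.

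Against smooth muscle, 716 of 6531 genes (11.0%) were at least 2 times higher in pericytes in all 4 libraries and 467 (7.15%) at least 2 times lower, among genes at 20 or more CPM in all 4 libraries of either type. Against endothelium the counts were 896 (12.4%) and 958 (13.3%) of 7203, and 426 of 6208 genes (6.86%) were higher than in both. Among genes at 20 or more CPM in pericytes of all libraries, the 15 whose lowest ratio against SMC was largest were Ggt1, Nodal, Kcnj8, Abcc9, Dcdc2a, Nts, Grm3, Uchl1, Saa1, Pla1a, Ptk7, Hic1, Atp13a5, Ano4 and Ptn. Grm3, a metabotropic glutamate receptor, stood at 169.6, 199, 175 and 183 CPM in pericytes, and Dcdc2a, a microtubule-binding protein, at 168, 176, 148 and 154. The 15 against EC were Carmn, P2ry14, Vtn, Ednra, Kcnj8, Grm7, Cspg4, Ggt5, Pdgfrb, Foxd1, Cd248, Slc38a11, Atp13a5, Slc19a1 and Slc6a20a. Kcnj8 and Atp13a5 stood on both. Carmn, the host transcript of the muscle microRNAs of mural cells, was 603, 525, 674 and 504 in pericytes and 412, 285, 321 and 275 in SMC.

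Several genes for secreted signals were higher in pericytes than in SMC. Ptn, the growth factor pleiotrophin, was 9468, 9806, 7558 and 7495 CPM in pericytes, against 210.3, 207, 303 and 182 in SMC and 1607, 1562, 1785 and 1593 in EC, so its ratio to SMC was 4.64 to 5.57 and to EC 2.08 to 2.65. Nodal, a ligand of the TGF-beta superfamily, was 203, 202, 221 and 201 in pericytes, from 208, 133, 269 and 158 UMIs, against 13, 0, 19 and 2 UMIs in SMC. Nts, the precursor of the peptide neurotensin, was 104, 161, 169.8 and 135, with UMIs in 38, 33, 54 and 31 pericytes, against at most 4.08 in SMC. At this level and depth a pericyte without a UMI of Nts may still express it. Bmp4 and Bmp5, bone morphogenetic proteins, were 78.0, 91.0, 89.4 and 112 and 87.7, 72.8, 109.9 and 76.2 against 5.42, 0, 8.16 and 6.09 and 7.83, 10.5, 14.9 and 14.5 in SMC. The cytokine Il34, a ligand of the microglial receptor Csf1r, was higher than in SMC by 2.03 to 3.04. Uchl1, a ubiquitin hydrolase better known from neurons, was 537, 589.8, 607 and 754 against 15.1, 13.4, 13 and 9.83 in SMC.

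**Figure D2:**
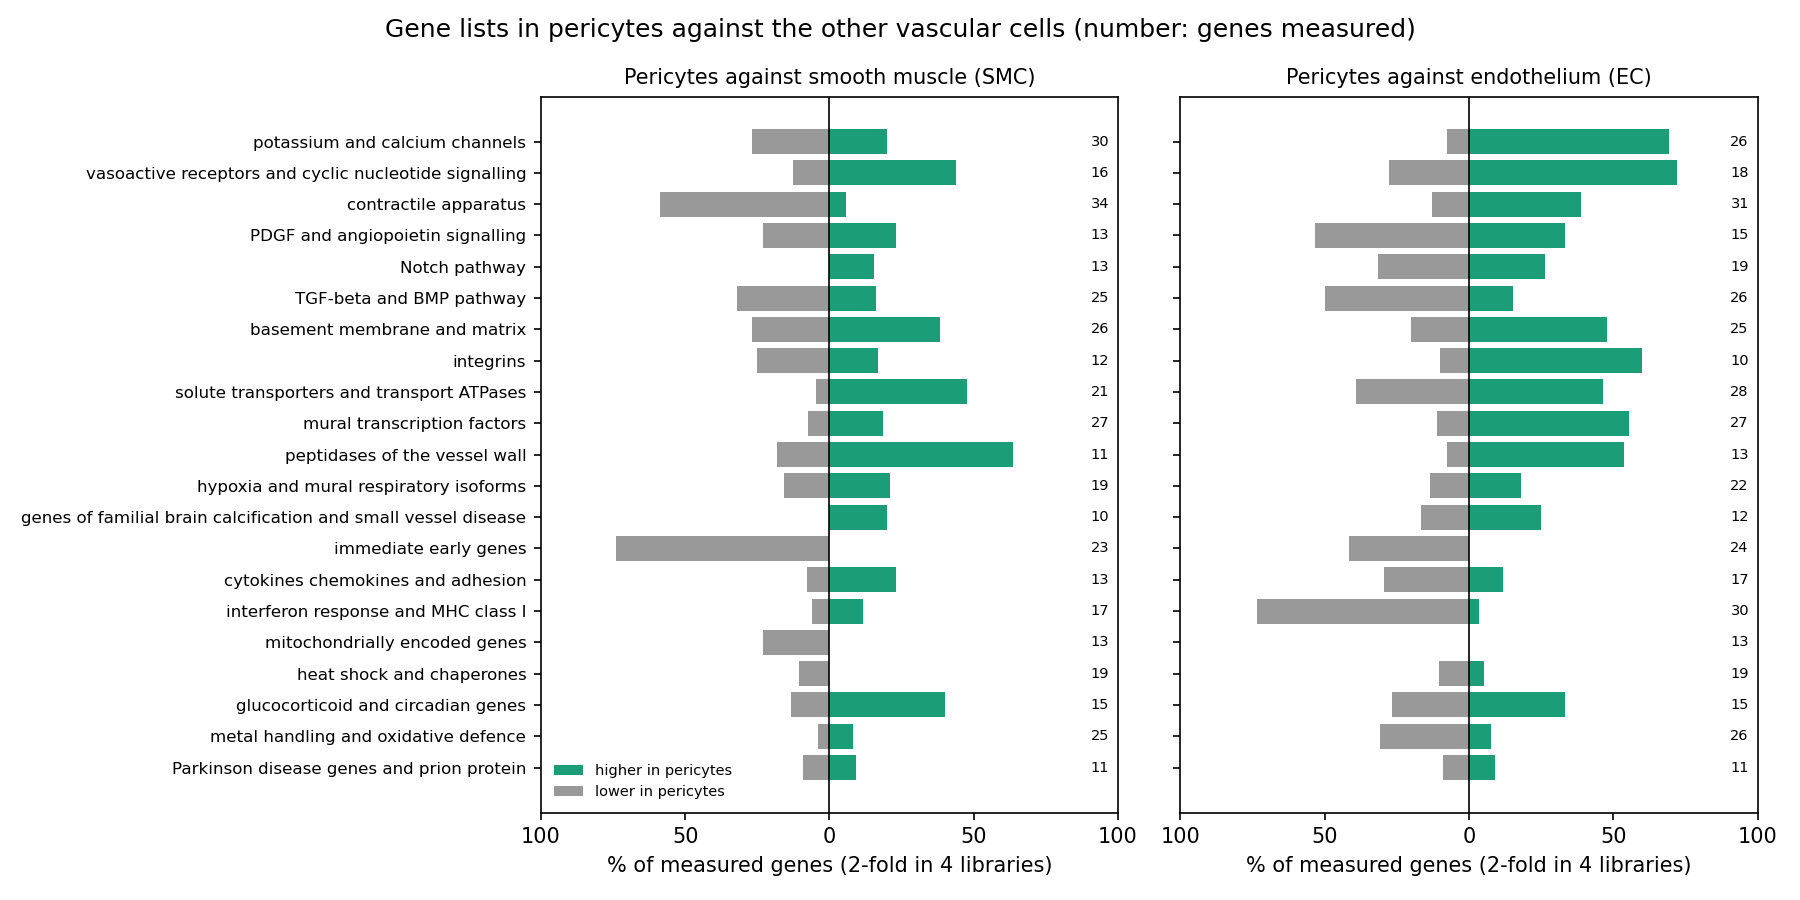
Share of measured genes of 21 gene lists (in %; the number beside each bar is the number of genes measured) that were at least 2 times higher (green, right) or lower (grey, left) in pericytes in all 4 libraries, against smooth muscle cells (left panel) and endothelial cells (right panel). Against smooth muscle the longest bars to the right belong to peptidases and solute transporters. The longest to the left belong to immediate early genes and the contractile apparatus. Against endothelium the interferon list has the longest bar to the left. Some lists hold pericyte markers, such as Kcnj8 and Abcc9 among the channels and Ggt1 and Anpep among the peptidases.

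The channels were mixed in direction. Of 30 measured potassium and calcium channel genes 6 were higher than in SMC in all libraries and 8 lower, against 11.0% and 7.15% of all genes. The 6 hold Kcnj8 and Abcc9, which were among the pericyte markers used to check the label. Their place in this count therefore adds nothing to that check. The 6 included Kcnj8, Abcc9, the receptor-operated cation channel Trpc4 (2.98 to 4.46), the inositol trisphosphate receptor Itpr2 (3.45 to 4.30) and Pkd2 (1.54 to 1.85). The 8 included the calcium pump Atp2a2 (-2.17 to -1.97), the large-conductance channel Kcnma1, the voltage-gated Kcna5 and Kcna2 and the ryanodine receptor Ryr2. Kcnma1 had 1, 3, 1 and 2 UMIs in pericytes and 480, 173, 414 and 195 in SMC. Ryr2 had 0, 0, 1 and 0 against 340, 108, 340 and 168, so both were at or under the floor in pericytes. Against EC, 18 of 26 channel genes were higher and 2, the mechanosensitive Piezo1 and Itpr3, were lower, against 12.4% and 13.3% of all genes. Of 16 receptors and cyclic nucleotide genes 7 were higher than in SMC and 2 lower. The 7 hold P2ry14, which is also a pericyte marker. Higher were the endothelin receptor Ednrb (1.98 to 3.31), the thromboxane receptor Tbxa2r (2.29 to 2.71), the adenosine receptor Adora2a (2.52 to 3.71), the parathyroid hormone receptor Pth1r (2.27 to 3.32), the UDP-glucose receptor P2ry14 (2.89 to 3.33), the guanylate cyclase subunit Gucy1b1 (1.07 to 1.58) and the phosphodiesterase Pde4d (2.10 to 2.44). Lower were Pde3a (-3.01 to -2.62) and Ramp1, a subunit of the receptor for calcitonin gene-related peptide, with 8, 7, 24 and 3 UMIs against 663, 214, 891 and 357. The endothelin receptor Ednra was 247, 282, 240.4 and 276 in pericytes, 155, 124, 140.2 and 194 in SMC and under 1 CPM in EC.

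Contractile genes were mostly lower. Of 34 genes 20 were lower than in SMC in all libraries and 2 higher, against 7.15% and 11.0% of all genes. The median ratio over genes was -2.06. Transgelin Tagln was -8.76 to -7.48, smooth muscle myosin Myh11 -6.29 to -4.73, and calponin Cnn1 had 2, 1, 5 and 1 UMIs in pericytes against 1487, 831, 1704 and 796 in SMC. Regulatory light chain Myl9 (-2.08 to -1.70) and light chain kinase Mylk (-2.62 to -2.29) were less far apart, and against EC both were higher in pericytes by 5.32 to 6.16 and 3.50 to 3.73. The 2 exceptions were the non-muscle myosin Myh9, at 847, 716, 816 and 703 against 212, 152, 212 and 185, and the pericyte marker Rgs5. Smooth muscle markers summed to 3284, 2778, 3414 and 3585 CPM in pericytes; how much of this came from smooth muscle RNA was not tested.

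Membrane peptidases were mostly higher in pericytes than in SMC, and more transporters were higher than lower, against 11.0% and 7.15% of all genes. Of 11 measured peptidase genes 7 were higher than in SMC and 2 lower. The 7 hold Ggt1 and Anpep, which are also pericyte markers. Ggt1, a gamma-glutamyl transferase that breaks down glutathione conjugates, had 267, 181, 298 and 166 UMIs in pericytes and 6, 1, 18 and 2 in SMC. Its relative Ggt5 (2.85 to 4.27) and the aminopeptidases Anpep (4.59 to 5.02) and Enpep (2.37 to 2.77), the latter of which cleaves angiotensin II, were also among the 7, and the carboxypeptidase Cpe (-3.26 to -1.55) among the 2. Enpep stood at 412, 549, 433 and 428 CPM in pericytes, 75.9, 80.3, 83.8 and 70.7 in SMC and 3.15, 3.49, 2.98 and 0.849 in EC. Of 21 transporter genes 10 were higher and 1, the sodium pump subunit Atp1b1, lower. They included the GABA and taurine transporter Slc6a13, with 120, 80, 165 and 105 UMIs in pericytes and 2, 0, 8 and 2 in SMC. Others were the organic anion transporter Slc22a8 (4.35 to 5.84), the manganese exporter Slc30a10 (4.03 to 4.79) and the proline transporter Slc6a20a (3.95 to 4.55). Slc22a8 was at nearly the same level in endothelium, with 343, 273, 299 and 289.7 against 377, 344, 378 and 354, whereas Slc30a10 was 363, 478, 416 and 421 against 1.93, 1.32, 2.30 and 2.83.

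Of 26 basement membrane and matrix genes 10 were higher than in SMC and 7 lower, against 11.0% and 7.15% of all genes. The laminin chains Lamb1 (4.44 to 5.73), Lama2 (3.47 to 3.75), Lamc3 (2.38 to 3.25), Lama4 (1.87 to 2.49) and Lamc1 (1.62 to 2.38) were higher, while Lama5 (-4.60 to -3.20) was lower. Nidogen Nid1 (2.25 to 2.64) and the fibrillar collagen Col5a3 (2.84 to 4.46) were also higher. Collagen Col18a1 (9, 6, 4 and 1 UMIs against 532, 266, 640 and 334), fibronectin Fn1 (-3.90 to -1.53), Tinagl1 (-5.40 to -4.05) and the metalloproteinase inhibitor Timp3 (-2.66 to -1.67) were lower. Lama2, the chain lost in a congenital muscular dystrophy, was 275, 312, 306 and 316 in pericytes against 20.5, 25.8, 27.1 and 28.6 in SMC and at most 2.98 in EC. Of 12 integrin genes 2 were higher than in SMC and 3 lower, and of 13 Notch pathway genes 2, Notch1 (1.72 to 2.28) and Numb (1.2 to 1.36), were higher and 0 lower. The shares of higher members in these 2 lists were near the 11.0% of all genes.

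Among 27 mural transcription factors 5 were higher than in SMC and 2 lower, against 11.0% and 7.15% of all genes, so the share of lower ones was near that of all genes. Hic1 had 249, 118, 301 and 174 UMIs against 22, 2, 33 and 17, and Foxf2 (1.70 to 2.66), Zic1 (1.71 to 2.40), Zic4 (1.43 to 2.21) and Foxd1 (1.39 to 1.86) were the other higher ones. Lower were Foxc2 and Myocd, the coactivator of smooth muscle genes, which had 0, 0, 0 and 3 UMIs against 279, 83, 377 and 183. Against EC 15 were higher, where the share of all genes was 12.4%. Among them were Tbx18 (6.08 to 7.40), Foxs1 (7.03 to 7.83) and Tbx2 (6.77 to 7.27). Foxf2 was shared with endothelium at 154, 89.5, 112 and 92.8 against 191, 160.2, 168 and 154. The respiratory subunit Cox4i2 (2.24 to 2.81) and the tissue-restricted Ndufa4l2 (2.54 to 3.00) and Higd1b (1.90 to 2.40) were higher than in SMC. All are also pericyte markers. The general forms Ndufa4 (-3.51 to -2.77) and Higd1a (-2.71 to -1.58) were lower. Many stimuli induce immediate early genes quickly, and tissue dissociation is known to induce them too. Of 23 such genes 17 were lower than in SMC and 0 higher, against 7.15% and 11.0% of all genes. Fos was 425, 227, 470.1 and 691 in pericytes against 4262, 3718, 5448 and 4841 in SMC. Of 30 interferon and MHC class I genes 22 were lower than in EC and 1 higher, against 13.3% and 12.4% of all genes. The 1 higher, Ifitm1 (6.24 to 6.50), was 1102, 1058, 1032 and 1083 CPM in pericytes. The clock-controlled genes Dbp (2.42 to 3.30), Per3 (1.99 to 2.37), Tef (1.38 to 2.21), Hlf (1.30 to 2.17), Nr1d2 (1.16 to 1.60) and Nr1d1 (1.24 to 1.73) were higher in pericytes than in SMC, 6 of 15 measured genes of the glucocorticoid and circadian list, against 11.0% of all genes. The list also held 2 that were lower, Cdkn1a (-4.91 to -3.63) and Errfi1 (-4.52 to -3.63), against 7.15%.

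Between genotypes, genes at 20 or more CPM in at least 1 of the 2 libraries were counted where they differed by at least 1.5 times. In frontal cortex pericytes 573 of 7504 genes (7.64%) were higher in the transgenic library and 739 (9.85%) lower. Of these, 272 (3.62%) and 353 (4.70%) had intervals that leave out 0. In midbrain 412 (5.56%) and 622 (8.40%) of 7407 genes passed the size, and 188 (2.54%) and 289 (3.90%) also had such an interval. The counts with an interval were added after the data were seen; they show that most of the differences counted by size alone lie within counting error. Members of the gene lists with 20 UMIs or more were counted where they differed by 1.2 times and 0 lay outside the interval, for which the share over all genes was 4.08% higher and 6.36% lower of 8638 in frontal cortex and 3.69% and 5.36% of 9033 in midbrain. The median over all genes was -0.04 in frontal cortex and -0.05 in midbrain.

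**Figure D3:**
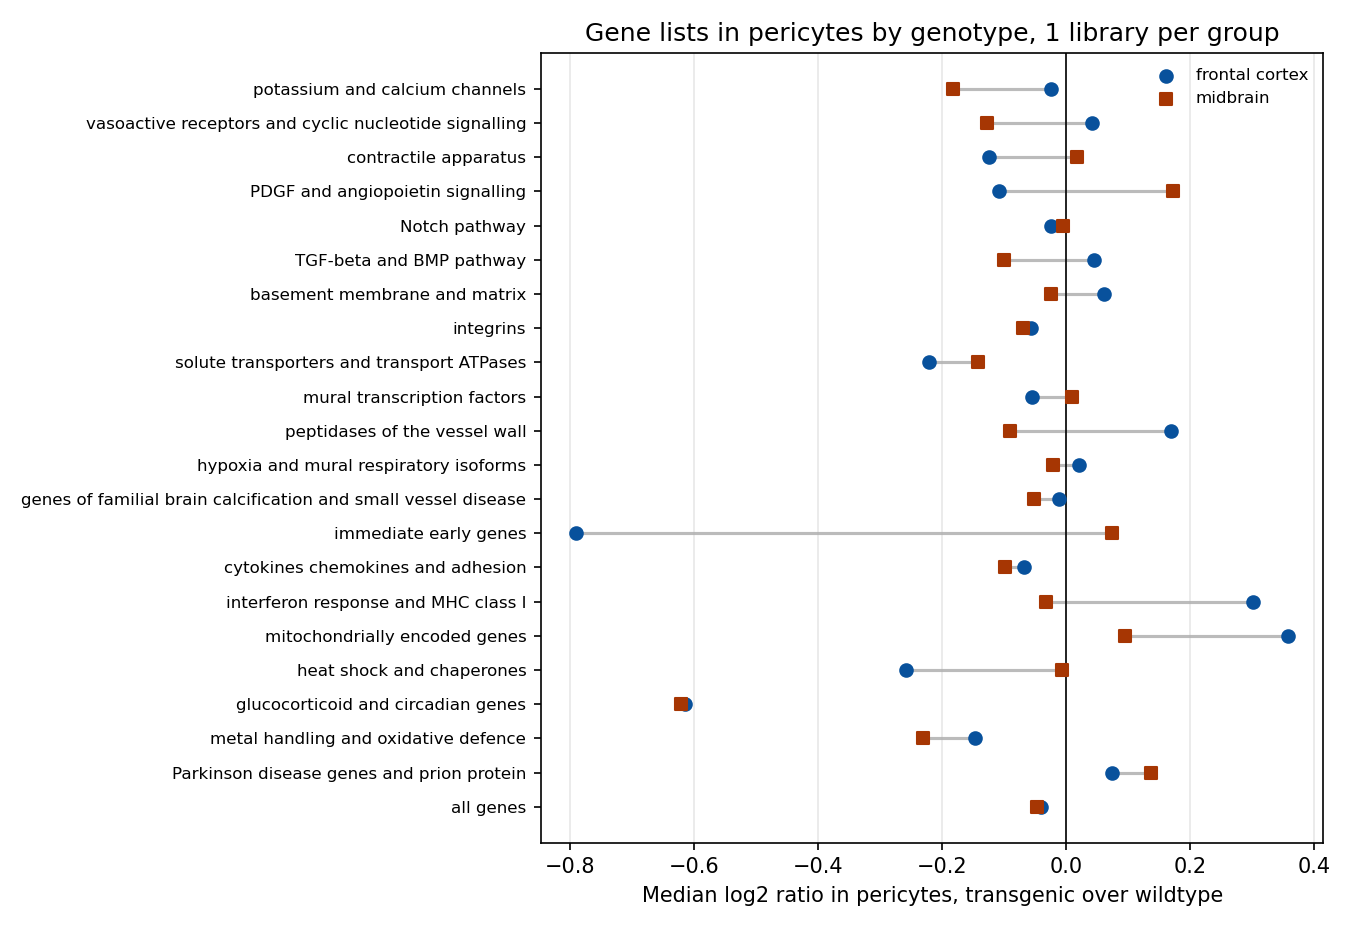
Median log2 ratio of 21 gene lists and of all genes in pericytes, transgenic over wildtype, in frontal cortex (circles) and midbrain (squares), with 1 library per group and members with at least 20 UMIs. The glucocorticoid and circadian list lies at -0.61 and -0.62, the immediate early genes at -0.79 and 0.07, and all genes at -0.04 and -0.05.

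The genes that mark pericytes differed little. Kcnj8 had a ratio of -0.16 [-0.29 to -0.04] in frontal cortex and -0.18 [-0.29 to -0.07] in midbrain, Abcc9 0.12 [0.00 to 0.24] and 0.11 [0.00 to 0.22], Vtn 0.07 [0.03 to 0.10] and -0.10 [-0.14 to -0.07], and Atp13a5 0.13 [0.03 to 0.23] and -0.06 [-0.16 to 0.03]. None of these 8 ratios exceeded 0.18 in size, although several intervals leave out 0. Of 25 channel genes with enough UMIs 3 were higher and 1 lower in frontal cortex, against 4.08% and 6.36% of all genes. In midbrain 0 were higher and 1 lower, against 3.69% and 5.36%. The shares of lower ones were near those of all genes. In frontal cortex the lower one was Kcne4, an accessory potassium channel subunit, at 139, 62.2, 107 and 82.6 CPM, with ratios of -1.16 [-1.70 to -0.65] and -0.38 [-0.83 to 0.06].

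Clock-controlled genes were lower in transgenic pericytes of both regions. The molecular clock runs in most cells: Clock and Arntl (Bmal1) drive Per, Cry, Nr1d and the PAR-domain factors Dbp, Tef and Hlf, and the products of Per, Cry and Nr1d feed back on them, so that Arntl and Dbp peak at opposite times of day. Dbp (chr7:45705088-45710203) stood at 379, 112, 400.4 and 139 CPM, from 389, 74, 488 and 109 UMIs. Both transgenic libraries were below both wildtype libraries, with ratios of -1.76 [-2.14 to -1.39] in frontal cortex and -1.53 [-1.84 to -1.23] in midbrain. Per3 (chr4:151003652-151044665), a period gene, was 122, 37.9, 117 and 30.5, from 125, 25, 143 and 24 UMIs, with ratios of -1.68 [-2.37 to -1.06] and -1.94 [-2.63 to -1.31]. Hlf (chr11:90336536-90390895) was 328, 133, 364 and 147, with ratios of -1.30 [-1.66 to -0.96] and -1.31 [-1.61 to -1.01]. In each of these genes the wildtype values of the regions were close and the transgenic values were close. Tef (chr15:81802421-81826863) was 119, 72.8, 112 and 58.5 and Per1 (chr11:69095217-69109960) 76.0, 34.9, 59.9 and 30.5, also lower in both transgenic libraries. The nuclear receptors Nr1d1 and Nr1d2 were 254, 168, 236 and 201 and 187, 127, 177 and 105, and the interval of Nr1d1 in midbrain spans 0, at -0.23 [-0.52 to 0.05]. Tsc22d3, a glucocorticoid-induced leucine zipper gene, was 131, 60.7, 136 and 78.8. In the opposite direction Arntl (chr7:113207465-113314126) was 16.6, 37.9, 7.38 and 45.7, from 17, 25, 9 and 36 UMIs, with ratios of 1.19 [0.25 to 2.17] and 2.63 [1.55 to 3.87], while Clock, at 93.6, 108, 107 and 117, had intervals that span 0 in both regions.

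**Figure D4:**
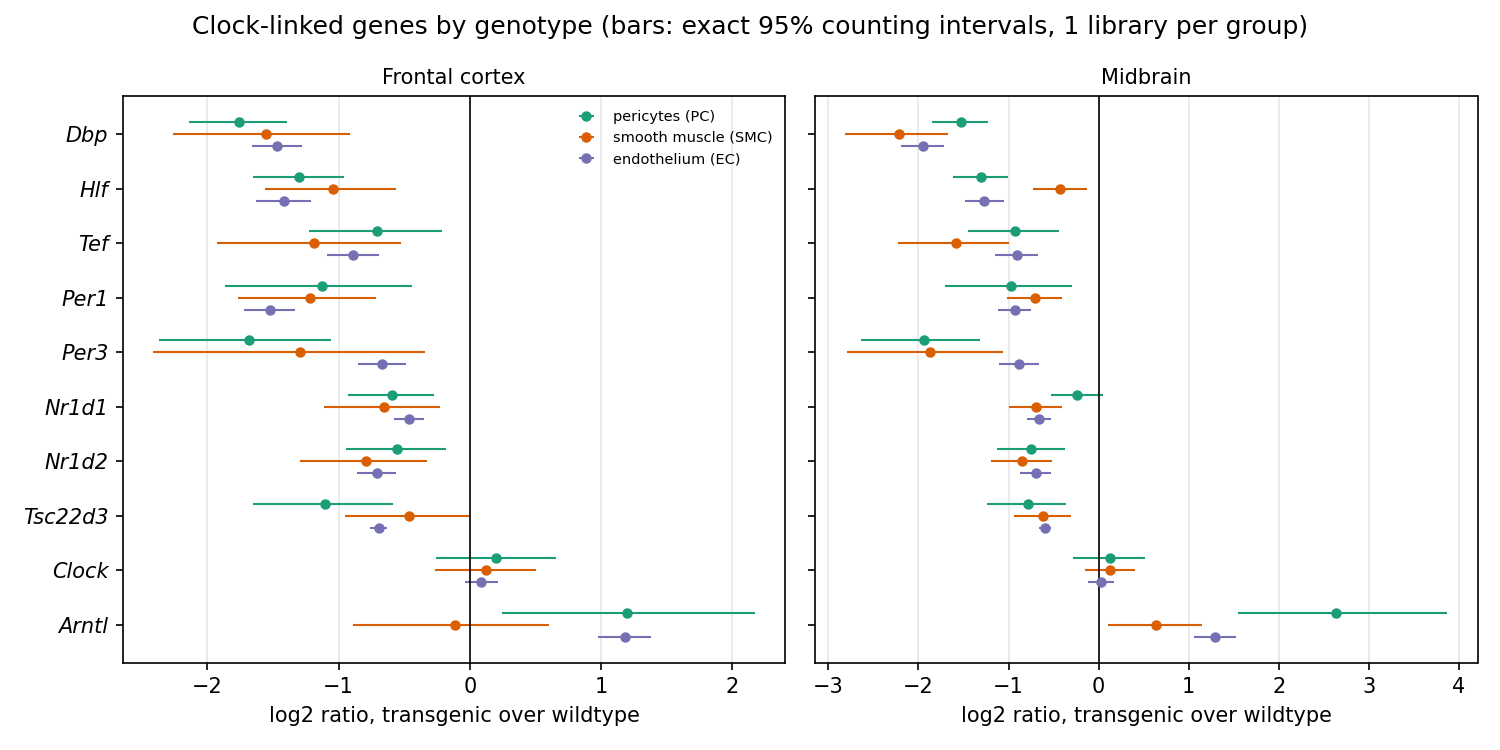
Log2 ratio of 10 clock-linked genes, transgenic over wildtype, in pericytes, smooth muscle cells and endothelial cells of frontal cortex (left) and midbrain (right); points are ratios of summed UMIs and bars exact 95% counting intervals, with 1 library per group. Dbp, Hlf, Tef, Per1, Per3 and Nr1d2 lie left of 0 in all 3 cell types of both regions, Clock lies near 0 and Arntl in pericytes lies to the right.

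Of the glucocorticoid and circadian list 12 of 19 with enough UMIs were lower and 1 higher in frontal cortex, against 6.36% and 4.08% of all genes, and 10 of 18 lower and 1 higher in midbrain, against 5.36% and 3.69%. The list's medians in pericytes were -0.61 and -0.62, in SMC -0.66 and -0.46 and in EC -0.67 and -0.68. The medians of all 3 vascular types were thus below 0 in both regions. Over all cells of the library other than pericytes the ratios were -0.87 and -0.79 for Dbp, -0.33 and -0.39 for Per3 and 0.60 and 0.79 for Arntl. In the restricted set the frontal cortex ratio of Per3 was -1.04 [-1.96 to -0.21] and that of Per1 -2.50 [-4.43 to -1.05], and after thinning Per3 was -0.99 [-1.91 to -0.15] in frontal cortex and -3.47 [-5.78 to -1.85] in midbrain, where 3 UMIs remained in the transgenic library. The hour at which tissue was collected is not given in the sources used here, so genotype and hour cannot be told apart.

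Per1, Tef and Per3 hold the letters of a clock element in the 250 bases before a RefSeq start, and these bases are shown because the same genes were low in both transgenic libraries and their window holds a motif. For genes with several starts the first window in the RefSeq table is shown. Per1 has 2 windows, of which the other (chr11:69099902-69100151) holds neither motif, and both lie inside the gene span given above; both windows of Tef hold an E-box. The sequences are from RefSeq on GRCm38.p6, read 5′ to 3′ in the direction of the gene. Capitals mark the E-box CACGTG, which Clock and Arntl bind, in Per1 (chr11:69098699-69098948, plus strand) and Tef (chr15:81802423-81802672, plus strand), and the D-box TTATGTAA, which Dbp, Tef and Hlf bind, in Per3 (chr4:151044666-151044915, minus strand).
Per1: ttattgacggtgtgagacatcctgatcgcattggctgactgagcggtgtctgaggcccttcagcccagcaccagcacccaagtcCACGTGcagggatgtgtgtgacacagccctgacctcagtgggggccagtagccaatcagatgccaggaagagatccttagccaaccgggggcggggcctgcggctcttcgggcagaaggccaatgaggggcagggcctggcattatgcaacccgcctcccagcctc
Tef: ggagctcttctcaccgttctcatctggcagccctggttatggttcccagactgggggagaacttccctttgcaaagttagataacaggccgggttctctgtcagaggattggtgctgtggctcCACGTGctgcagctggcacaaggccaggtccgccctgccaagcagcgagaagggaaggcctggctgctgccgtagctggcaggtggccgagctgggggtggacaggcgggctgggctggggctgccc
Per3: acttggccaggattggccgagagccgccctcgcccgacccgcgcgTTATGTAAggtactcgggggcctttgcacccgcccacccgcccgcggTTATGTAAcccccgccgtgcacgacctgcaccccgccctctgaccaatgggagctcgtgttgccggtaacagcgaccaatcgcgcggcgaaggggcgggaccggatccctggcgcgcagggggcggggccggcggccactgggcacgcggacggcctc
The E-box begins 166 bases before that start in Per1 and 127 in Tef, and the D-boxes 205 and 158 bases before the start in Per3. Both motifs were searched on both strands, the D-box in both orientations; the E-box is its own reverse complement and neither motif contains the other. Of 13 clock genes with a window, 5 held an E-box (Tef, Per1, Cry1, Ciart, Bhlhe41) and 1 a D-box (Per3), in any of their windows, against 6.86% and 0.977% of all 27025 genes counted the same way. Per window, 6 of 18 held an E-box and 1 a D-box, against 6.02% and 0.819% of 32851 windows. The windows of Dbp, Hlf, Nr1d1, Nr1d2, Arntl, Clock and Cry2 hold neither string, which says nothing about elements elsewhere. A match is a description of the letters, and binding was not measured.

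Genes were named between groups where they held 20 CPM and 50 UMIs in 1 of the 2 libraries, differed by 1.5 times with an interval that leaves out 0, had the same direction under TMM scaling, in the mean of per-cell values and without each gene's highest cell, and had at most 25% of their UMIs in 1 cell. Mitochondrial, ribosomal, haemoglobin and other cells' marker genes were left out, and the 10 largest and 10 smallest ratios were taken. Prnp, which encodes the prion protein, had the largest ratio of these in both regions. Prnp (chr2:131909928-131938429) stood at 75.1, 356, 99.3 and 288 CPM, from 77, 235, 121 and 227 UMIs, with ratios of 2.25 [1.87 to 2.64] and 1.54 [1.21 to 1.87]. Both transgenic libraries were above both wildtype libraries. A UMI of Prnp was found in 11.6%, 50.8%, 17.2% and 45.6% of thinned pericytes (29.3%, 71.5%, 26.6% and 72.7% before thinning) and in 3.89%, 19.4%, 6.52% and 9.39% of thinned microglia. The ratio was 2.79 and 1.94 in SMC, 0.46 and 0.26 in EC and 1.18 and 0.73 over all other cells, and in pericytes of the restricted set it was 2.45 [1.89 to 3.05] and 2.29 [1.82 to 2.77]. The Prnp promoter has been used to drive transgenes in mice; which promoter was used here is not given in the sources used here, and the source of these UMIs was not tested. The list of Parkinson disease genes also holds the prion protein gene Prnp, which is not one of them. Of its 12 measured genes 2 were higher in frontal cortex and 3 in midbrain, with 0 lower. Of all genes 4.08% and 3.69% were higher and 6.36% and 5.36% lower. Besides Prnp the higher ones were Vps13c, 0.66 [0.10 to 1.23], in frontal cortex, and Gigyf2, 0.61 [0.11 to 1.11], and Uchl1, 0.31 [0.15 to 0.47], in midbrain.

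Immediate early genes were mostly lower in transgenic frontal cortex pericytes. In frontal cortex 16 of 21 were lower and 0 higher, against 6.36% and 4.08% of all genes, with a median of -0.79. In midbrain 2 of 21 were lower and 5 higher, against 5.36% and 3.69% of all genes, with a median of 0.07. Jun was 1308, 415, 907 and 1178 CPM, so that the transgenic frontal cortex library lay below the other 3. Fos was 425, 227, 470.1 and 691 and Klf4, a zinc finger factor of quiescent vessels, 100.4, 30.3, 78.8 and 82.6. The matricellular gene Cyr61 was 119, 15.2, 77.9 and 104, from 122, 10, 95 and 82 UMIs, the lowest ratio of the naming rule in frontal cortex at -2.97 [-4.07 to -2.04], against 0.42 [-0.03 to 0.86] in midbrain. The frontal cortex median was -0.31 in SMC and -0.76 in EC, so the endothelium of that library had a like median. In the restricted set the pericyte medians were -0.71 in frontal cortex and -0.22 in midbrain. The heat shock genes Hspa1b, at 391, 197, 288 and 649, and Hspa1a, at 903, 546, 948 and 1601, were likewise lowest in the transgenic frontal cortex library and highest in the transgenic midbrain library; they are close copies whose reads may be shared. After thinning Klf4 was -0.61 [-1.72 to 0.42], and in the restricted set Cyr61 was -4.08 [-7.15 to -2.17], with 2 UMIs in the transgenic library.

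Other genes were higher in transgenic pericytes of frontal cortex. Mgp, matrix Gla protein, an inhibitor of calcification, stood at 1829.5, 3666, 1576 and 2271 CPM, with ratios of 1.0 [0.92 to 1.09] and 0.53 [0.43 to 0.62] in pericytes, 1.09 and -0.68 in SMC and 0.48 and 0.28 in EC. The type IV collagens of the basement membrane, Col4a1 at 677, 1083, 569 and 690.0 and Col4a2 at 359, 559.5, 258 and 344, were higher in the transgenic library of each region. Of 25 matrix genes 5 were higher and 2 lower in frontal cortex, against 4.08% and 6.36% of all genes. In midbrain 3 were higher and 1 lower, against 3.69% and 5.36%. The shares of lower ones were near those of all genes, and the list's medians were 0.06 and -0.02. Rflna (40.9, 100.1, 24.6 and 35.6), the adenylate cyclase Adcy9 (37.0, 84.9, 60.7 and 39.4) and the secreted matrix protein Ecm1 (35.1, 78.8, 49.2 and 66.1) had frontal cortex ratios of 1.29, 1.2 and 1.17. Tmem136 (0.98), Gstm5 (0.97), Ulk3 (0.95) and Grcc10 (0.94) completed the 10 named; in the restricted set Ulk3 was 0.30 [-0.53 to 1.10] and Tmem136 1.66 [0.78 to 2.58]. Mgp was 0.70 [0.55 to 0.84] after thinning.

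Some frontal cortex differences moved together with other cells' markers. Cpe was 48.7, 187, 86.1 and 49.6 CPM, a ratio of 1.94 [1.45 to 2.44] in frontal cortex 2.86 [1.95 to 3.89] after thinning and 1.29 [0.42 to 2.18] in the restricted set. Mt3, a metallothionein abundant in astrocytes, had 42, 113, 113 and 33 UMIs with a frontal cortex ratio of 2.07 [1.54 to 2.61]. Astrocyte markers were 1155 CPM in that library's pericytes against 370.4 in the wildtype ones, with Slc1a2 and Plpp3 leading, and their part in these ratios was not tested. The microglial genes Laptm5 (-2.19), Slco2b1 (-2.03), Fcrls (-1.85) and Trem2 (-1.79) were named among the 10 lowest. The microglial markers themselves were 469 against 1643 CPM. In the restricted set, on 2 to 14 UMIs per library, the ratios were -0.41 [-2.51 to 1.35], -0.27 [-3.66 to 2.34], -0.17 [-1.84 to 1.30] and 0.16 [-1.40 to 1.59], and all 4 intervals span 0. Dbp, Klf4, Jcad, Per3 and Slc7a1 made up the rest of the lowest 10 with Cyr61. Jcad, a junctional protein, was -1.71, and in the restricted set -2.53 [-5.66 to -0.52]. Slc7a1, a cationic amino acid transporter at 48.7, 15.2, 32.8 and 30.5, was -1.68, and in the restricted set -3.47 [-8.83 to -0.85], with 1 UMI in the transgenic library.

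Several genes of mural function were lower in transgenic pericytes of frontal cortex, and in midbrain they were mixed in direction. Foxf2, a forkhead factor of brain pericytes, was 154, 89.5, 112 and 92.8 CPM, a ratio of -0.78 [-1.24 to -0.34] there and -0.28 [-0.71 to 0.14] in midbrain. Foxc1 was 353, 282, 363 and 281, with ratios of -0.32 and -0.37, and the 5 mural transcription factors lower of 25 in frontal cortex also held Hic1, Tbx3 and Mef2a, against 6.36% of all genes. Foxs1 was the 1 higher in each region, at 0.45 and 0.60, and in midbrain 3 of 25, Foxc1, Prrx1 and Foxd1, were lower, against 5.36% of all genes. Of 32 contractile genes 4 were lower and 0 higher in frontal cortex, against 6.36% and 4.08% of all genes. The intermediate filament gene Des was at -0.78 there. In midbrain 3 of the 32, Lmod1, Myh11 and Flna, were higher and 2, Tagln and Tpm2, lower, against 3.69% and 5.36% of all genes. The share of lower contractile genes was thus near that of all genes. Of 30 transporters 9 were lower and 4 higher in frontal cortex, against 6.36% and 4.08% of all genes. Of 28 in midbrain 4 were lower and 1 higher, against 5.36% and 3.69%, so the share of higher ones was near that of all genes. The proline transporter Slc6a20a, at 1076, 811, 1001 and 747, was lower in both regions, by -0.41 [-0.56 to -0.26] and -0.42 [-0.57 to -0.28]. Interferon genes were 4 higher and 0 lower of 25 in frontal cortex, against 4.08% and 6.36% of all genes. In midbrain 1 of 25 was higher and 0 lower. The share of higher ones in midbrain was near the 3.69% of all genes. Ifitm3 stood at 696, 998, 688 and 848, a ratio of 0.52 [0.36 to 0.67] in frontal cortex. Ifit3 had 9, 18, 16 and 8 UMIs and Oasl2 19, 26, 28 and 30. Mitochondrially encoded genes were 8 higher and 0 lower of 13 in frontal cortex, against 4.08% and 6.36% of all genes, with a median of 0.36. The mitochondrial share there was 4.40% against 3.58%. In midbrain 2 of 13 were higher and 0 lower, against 3.69% and 5.36% of all genes.

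In midbrain the 10 highest genes included Prnp, Mnd1 (1.42), Hspa1b (1.17), Cysltr2 (1.07), Wdr45b (1.03), Rasl11a (0.98), Mplkip (0.95), Tcim (0.93) and Adamts1 (0.92). Cysltr2, a receptor for cysteinyl leukotrienes, was 138, 155, 86.1 and 180.4 CPM, so that the wildtype midbrain library was the lowest of the 4. Adamts1, a matrix protease, was 71.2, 33.4, 48.4 and 91.5, and its frontal cortex ratio was -1.09 [-1.85 to -0.39]. Hspa1b was 0.72 [0.48 to 0.97] in the restricted set. The 10 lowest were Slc4a4 (-2.31), Per3, Slc6a11 (-1.57), Dbp, Adprhl2 (-1.46), Apoe (-1.39), Zbtb11 (-1.37), Pde10a (-1.32), Hlf and Cant1 (-1.26). Slc4a4, a bicarbonate cotransporter, Slc6a11, a GABA transporter, and Apoe are abundant in astrocytes, whose markers were 806 in wildtype and 436 in transgenic midbrain pericytes. In the restricted set Slc6a11 was -0.04 [-1.07 to 0.93], Apoe -0.52 [-0.77 to -0.27] and Slc4a4 -1.42 [-3.44 to 0.18], and after thinning Slc6a11 was -0.62 [-1.76 to 0.42]. The part of astrocyte RNA in these ratios was not tested. The hypoxia-responsive vasodilator Adm, at 57.5, 31.8, 36.1 and 12.7 (from 59, 21, 44 and 10 UMIs), was lower in both regions, by -0.85 [-1.65 to -0.11] and -1.51 [-2.66 to -0.49].

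Across both regions 16 genes met the naming rule in the same direction. The 6 higher were 6 of 61 in frontal cortex and of 52 in midbrain, and the 10 lower were 10 of 186 and of 141. This list was drawn up after the values were seen. The regions share no library, but the labels say that both came from the same mice, so they are not independent. Higher were Bloc1s1, Mospd1, Mrps16, Prnp, Rasl11a and Slc39a1, and lower Cxcl12, Dbp, Elf1, Hlf, Per1, Per3, Tef, Tsc22d3, Tspan4 and Vamp3. Of the lower genes Dbp, Hlf, Per1, Per3, Tef and Tsc22d3 belong to the glucocorticoid and circadian list. Cxcl12, a chemokine that vessel cells secrete, was 444, 230.5, 423 and 278 CPM, with ratios of -0.95 [-1.22 to -0.68] and -0.60 [-0.84 to -0.37]; in SMC the ratios were -0.52 and -0.69 and in EC -0.24 and -0.05. Both transgenic pericyte libraries were below both wildtype libraries. Bloc1s1, a subunit of a lysosome-related complex, was 150.1, 243, 164 and 253, and Mospd1, a membrane protein of the endoplasmic reticulum, 99.4, 176, 96.8 and 174. In frontal cortex the thinned ratios of Slc39a1 and Rasl11a were -0.13 [-1.06 to 0.77] and 0.00 [-0.92 to 0.89], against 0.59 and 0.69 unthinned. Mospd1 was 1.26 [0.83 to 1.69] in the midbrain restricted set.

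Between regions, 421 (5.64%) of 7469 genes were higher and 529 (7.08%) lower in wildtype midbrain than in wildtype frontal cortex pericytes, and 604 (8.13%) and 742 (9.99%) of 7429 in the transgenic libraries. With intervals that leave out 0 the counts were 211 (2.83%) and 322 (4.31%), and 216 (2.91%) and 303 (4.08%). Both comparisons draw on the libraries used between genotypes, so they are not independent of those results. Genes that passed the stricter naming rule in both genotypes were 7 of the 211 and 216 higher and 9 of the 322 and 303 lower in midbrain. Immediate early genes went different ways in the genotypes. In wildtype midbrain 2 of 21 were higher and 12 lower, against 4.24% and 5.90% of all genes, with a median of -0.32. In transgenic midbrain 10 of 21 were higher and 0 lower, against 4.11% and 4.80% of all genes, with a median of 0.38. The frontal cortex library of the transgenic pair is the one with low values.

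**Figure D5:**
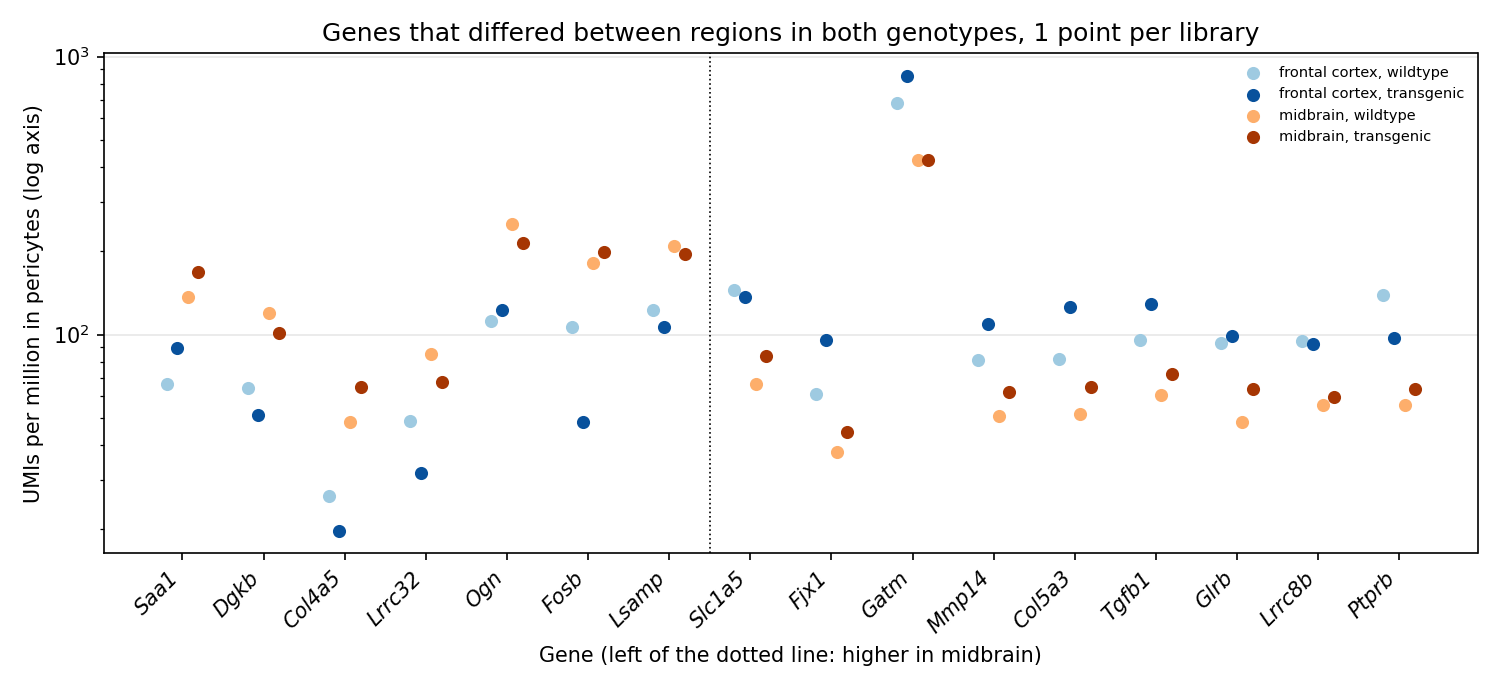
CPM (log axis) in pericytes of the 16 genes that passed the naming rule between regions in both genotypes, 1 point per library. Genes left of the dotted line are higher in both midbrain libraries, such as Ogn and Lsamp, and those right of it are higher in both frontal cortex libraries, such as Gatm and Slc1a5.

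Higher in midbrain were Ogn, the small proteoglycan osteoglycin, at 112, 123, 251 and 213 CPM, and Lsamp, a neural adhesion protein, at 123, 106, 208 and 196. Dgkb, a diacylglycerol kinase, was 64.3, 51.6, 119.8 and 102, and the basement membrane collagen Col4a5 26.3, 19.7, 48.4 and 64.8. In all 4 genes both midbrain values exceed both frontal cortex values, with ratios of 1.16 [0.85 to 1.49] and 0.80 [0.41 to 1.2] for Ogn and 0.90 [0.47 to 1.34] and 0.98 [0.38 to 1.60] for Dgkb. Saa1, an acute phase protein, was 66.3, 89.5, 136 and 168, but its transgenic ratio of 0.91 was 0.20 [-0.41 to 0.83] in the restricted set. Lrrc32, which displays latent TGF-beta, had ratios of 0.81 and 1.08. Fosb, an immediate early gene, was 106, 48.5, 181 and 198, with ratios of 0.77 and 2.03. Acta2, with 1.26 [0.66 to 1.89] and 0.69 [0.01 to 1.41], and Myh11, with 0.64 [0.25 to 1.04] and 1.54 [1.03 to 2.08], were also higher in the midbrain pericyte sums. Acta2 was detected in 5.29%, 11.7%, 12.8% and 9.56% of thinned pericytes, so the transgenic share was lower in midbrain. In thinned microglia, which should lack it, the shares were 5.19%, 4.35%, 7.98% and 6.26%. Myh11 was detected in 13.2%, 10.9%, 19.6% and 25% of thinned pericytes and at most 2.04% of thinned microglia. The part of smooth muscle RNA in these ratios was not tested. Of the contractile list 5 of 32 genes were higher and 2 lower in wildtype and 6 of 31 and 0 in transgenic pericytes, against 4.24% and 5.90%, and 4.11% and 4.80%, of all genes.

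Lower in midbrain was Gatm, the first enzyme of creatine synthesis, at 683, 854, 423 and 426 CPM, with ratios of -0.69 [-0.86 to -0.52] and -1.0 [-1.2 to -0.81]. In SMC the ratios of Gatm were 0.11 and 0.69 and in EC -0.06 and -0.17. The glutamine transporter Slc1a5 was 144, 136, 66.5 and 83.9, Col5a3 81.9, 126, 51.7 and 64.8, the growth factor Tgfb1 95.5, 129, 60.7 and 72.4 and the membrane metalloproteinase Mmp14 80.9, 109, 50.9 and 62.3, and in each both midbrain values lie below both frontal cortex values. The transgenic ratio of Mmp14, -0.81, was -0.21 [-1.12 to 0.68] after thinning. Fjx1 (-0.70 and -1.10), the glycine receptor subunit Glrb (-0.95 and -0.63), the volume-regulated anion channel subunit Lrrc8b (-0.76 and -0.63) and Ptprb (-1.31 and -0.61), a phosphatase of endothelium, were the others. The transgenic ratio of Fjx1 was -1.82 [-2.73 to -0.96] in the restricted set, and after thinning the wildtype ratios of Fjx1 and Lrrc8b were -1.30 [-2.35 to -0.31] and -1.29 [-2.04 to -0.57]. Ptn was -0.33 [-0.37 to -0.28] and -0.39 [-0.44 to -0.34], and integrin Itga1, at 1754, 1686, 1362 and 1369, -0.37 and -0.30. Col4a1 (-0.25 and -0.65) and Col4a2 (-0.47 and -0.70) were lower in midbrain of both genotypes, the reverse of Col4a5. The ATP-gated channel P2rx1, at 23.4, 47.0, 5.74 and 11.4 from 24, 31, 7 and 9 UMIs, had ratios of -2.03 [-3.48 to -0.77] and -2.04 [-3.29 to -0.93]. Ttr, a product of the choroid plexus, was at 18.5, 18.2, 4316 and 2074 CPM in pericytes, at 5.42, 10.5, 1905 and 1244 in SMC and at 7.96, 13.7, 2737 and 1509 in EC. It was high in all 3 types of both midbrain libraries, and whether pericytes express it was not tested. Kcnj8, with ratios of 0.08 [-0.02 to 0.17] and 0.06 [-0.07 to 0.19], and Pdgfrb, with -0.02 [-0.10 to 0.07] and -0.05 [-0.15 to 0.05], had intervals between regions that span 0.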

How the data were processed

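Single-cell libraries (10x Chromium 3′ v3) of frontal cortex and midbrain were made from transgenic and wildtype mice, 1 library per group. The values are UMI counts per gene and cell as the authors deposited them (19602 genes in the frontal cortex table, 19956 in the midbrain table, 19040 in both). Cell Ranger 3.0.0, Seurat 3.1.5 and mm10 are named, with no role, in the submitters' processing notes; cell filters are not given in the sources used here. The deposited cell tables give the library, cluster and cell type of each cell and its mitochondrial percent, per the file headers; types and libraries were taken from them. No columns of per-sample values were left unused (0).

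Counts were summed over the PC, SMC or EC cells of a library and divided by that sum. Ratios carry exact conditional Clopper-Pearson intervals at 95%, with a floor of 3 counts; the script was tested on simulated data. Summing hides differences between cells, and larger cells weigh more, so the mean of per-cell values and cells thinned to 2000 UMIs were alternatives, as were TMM (edgeR 4.0.16) and DESeq2 1.42.0 size factors, totals without mitochondrial and ribosomal protein genes, cells under 10% mitochondrial UMIs with 500 genes, each gene's highest cell left out, no minimum level and one of 50 CPM. Other tools were Python 3.11.15, numpy 2.4.6, pandas 2.3.3, scipy 1.17.1 and R 4.3.3. With 1 library per group there is no test. Pericyte depths of 659511 to 1218857 UMIs make 20 CPM 13 to 24 UMIs.

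The pericytes, the 21 gene lists and the 13 marker lists were chosen with earlier results of these data known. Genes named against SMC and EC are the 15 with the largest lowest ratio over the 4 libraries; between groups they are the 10 largest and 10 smallest ratios past the filters given in the report (for region, those past them in both genotypes), plus Prnp, the pericyte markers and members of each list that the report describes. A few members of lists were named after their values were seen for what they encode. Gene positions are those of GENCODE vM21 on GRCm38. A few genes that the rule selects are not reported here.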

Additional observations from a re-analysis of the deposited data

Results flagged for a closer look

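In 6 genes the genotype ratio had opposite signs in the regions, each at least 1.5 times in size with an interval that leaves out 0; for each the difference between regions was not tested. Adamts1 was -1.09 in frontal cortex and 0.92 in midbrain pericytes, and Hspa1b was -0.99 and 1.17. Adcy9 was 1.2 in frontal cortex and -0.62 in midbrain. Cpe was 1.94 and -0.80, Apoe 0.68 and -1.39 and Slc4a4 3.70 and -2.31. Cpe, Apoe and Slc4a4 followed the sum of the astrocyte markers in pericytes, which was 370.4 and 1155 CPM in wildtype and transgenic frontal cortex and 806 and 436 in wildtype and transgenic midbrain; the part of astrocyte RNA was not tested.

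Between regions, the median of the immediate early genes in pericytes was -0.32 in wildtype and 0.38 in transgenic mice, midbrain over frontal cortex. The 2 medians have opposite signs, and the difference between them was not tested.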

How the results depend on the processing

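No paired analysis was possible because each group is 1 library and the labels number no replicates; for the same reason no replicate could be left out. Of 96 recomputed counts and shares 66 stayed within 1.5 times or, for shares, within the interval, and 30 moved. After thinning to 2000 UMIs 1050 genes were higher and 1333 lower in transgenic pericytes of frontal cortex, 913 and 1341 in those of midbrain, and those higher and lower in midbrain 1060 and 1003 in wildtype and 1236 and 1383 in transgenic mice. In the restricted set, chosen after the data were seen, 1101 were higher and 1213 lower in transgenic frontal cortex, 678 higher in wildtype midbrain, and 1113 and 1232 in transgenic midbrain. Both alternatives hold fewer UMIs. With no minimum level the 4 pairs of counts were 1505 and 1769, 1140 and 1870, 1524 and 1512, and 1381 and 1765. With 50 CPM they were 171 and 245, 104 and 147, 88 and 158, and 173 and 205. The pericyte share in wildtype midbrain was 3.84% among cells under 10% mitochondrial UMIs with 500 genes. Counts against SMC and EC stayed within 1.5 times under 3 alternatives. Of 768 named-gene values 37 moved and 2 reversed. Both reversals were in frontal cortex, Slc39a1 at -0.13 after thinning and Trem2 at 0.16 in the restricted set. Their cause was not tested. Of the values that moved, 14 did so after thinning, 19 in the restricted set and 4 in the mean of per-cell values. The naming rule had already required the same direction under TMM, in the mean of per-cell values and without each gene's highest cell. A reversal under these settings was therefore not possible. Of 672 list medians 666 moved by less than 1.2 times. TMM and DESeq2 factors shifted ratios by at most 0.041. A planned selection of cells without UMIs of 6 other types' markers left 0 pericytes and gave no value.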
